A study of Mus musculus with 4 samples.

Results

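Endothelial cells and pericytes of the hyaloid vasculature were compared at postnatal day 6 (P6) by single-cell RNA sequencing in 384-well plates. Members were chosen by 2 genes: a well with *Cldn5* and no *Pdgfrb* UMI was taken as an endothelial cell, and a well with *Pdgfrb* and no *Cldn5* UMI as a pericyte. A UMI (unique molecular identifier) marks 1 captured RNA molecule. Of 1536 wells, 32 qualified, of which 11 were endothelial cells and 21 were pericytes. UMIs were summed per class and plate, which gave 4 endothelial and 3 pericyte sums, and these 7 sums are the units of every comparison. *Cldn5*, *Pdgfrb* and the 13 mitochondrial genes were used in choosing the wells and are not results.

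Both genotypes entered together. The Gpr124 fl/fl mice carried floxed *Gpr124* alleles without Cre and served as controls. The Gpr124 dEC/dEC mice were Gpr124 fl/fl with VECad-Cre-ERT2, a tamoxifen-inducible Cre driven by the vascular endothelial cadherin promoter. All pups, controls included, received tamoxifen daily from P1 to P4. The vitreous bodies were pooled by genotype into 1 suspension each, from 7 mice for Gpr124 fl/fl and 9 for Gpr124 dEC/dEC. Live cells with surface CD31 or PDGFRB then filled 2 plates per genotype. The sums therefore come from 2 suspensions, p-values measure the spread between these sums, and no effect of genotype was tested.

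Endothelial cells line the vessel lumen, are joined by VE-cadherin and claudin junctions and respond to VEGF. Pericytes are mural cells embedded in the basement membrane that both cell types produce, and they contract and signal to the endothelium. The hyaloid vessels supply the developing lens and vitreous and regress after birth in mice.

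The endothelial sums held 5922, 9942, 6225 and 8959 UMIs in plates dEC/dEC 1, dEC/dEC 2, fl/fl 1 and fl/fl 2, from 4, 2, 2 and 3 wells. The pericyte sums held 48351, 18014 and 14095 UMIs in dEC/dEC 2, fl/fl 1 and fl/fl 2, from 12, 6 and 3 wells, and dEC/dEC 1 held no pericyte. All values below are UMIs per 10000 UMIs of a sum, in this order of plates. One well made up 69.4% of the endothelial sum of dEC/dEC 2. Scaled totals of the retained wells ran from 1458 to 7770 UMIs, next to 996 just below and 8185 just above the limits. For 10 of the 32 cells, another plate had a well of at least 1000 UMIs under that barcode, and 3 barcodes were held by retained cells of more than 1 plate.

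Other cell types were checked by their markers. All 13 lens and all 7 astrocyte markers were at 0 in every sum, and 13 of 14 macrophage markers were at 0 in the endothelial sums. Macrophage markers summed to at most 2.01 per 10000 in endothelial cells and 3.93 in pericytes. Fibroblast markers were at 0 in endothelial cells and summed to 3.72 to 4.44 in pericytes, with *Pdgfra* among the 6 of 8 at 0. Erythroid markers summed to 260 per 10000 in the endothelial sum of fl/fl 2 and to 0 to 11.8 in the other endothelial sums.

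Of the 135 genes that passed an expression filter, 37 (27.4%) were higher in endothelial cells and 25 (18.5%) higher in pericytes at an adjusted p under 0.05 (edgeR quasi-likelihood test, Benjamini-Hochberg adjustment). The sums of the classes did not overlap for 38 genes (28.1%) with endothelial cells above and for 19 (14.1%) with pericytes above. A gene can pass this filter through the sums of its high class alone, as *Cryab* did with no endothelial UMI. Genes that passed in this way had to differ, so these shares are description. Among the called genes, the direction held in all 3 plates with both classes for 34 of 37 and 24 of 25. The calls come from these same sums, so this agreement is not independent support. Of the 37, 22 are in the list of ribosomal proteins, which does not hold *Rpl9-ps6*, also called. The split depended on the scaling: with DESeq2 size factors it was 25 against 25, with plain library totals 45 against 22, and with TMM factors computed after the filter 14 against 34. Under all 4 scalings, 14 genes were called higher in endothelial cells and 22 higher in pericytes. Plain totals moved the median log2 difference by 0.12 and factors computed after the filter by -0.30, so small differences carry no firm direction.

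A wider set of 603 genes with at least 30 UMIs over the 7 sums gave 41 genes (6.80%) higher in endothelial cells and 110 (18.2%) higher in pericytes. Here the sums did not overlap for 62 genes (10.3%) with endothelial cells above and 125 (20.7%) with pericytes above. Under 3 scalings, 31 of the 41 and 101 of the 110 stayed called. The pericyte sums hold 80460 UMIs and the endothelial sums 31048, so a gene passes this filter more easily when it is high in pericytes, and a gene that passed only through its high class had to differ. The counts in the 2 directions are therefore not comparable with each other. Counts of list members called among the 603 carry the same limit and are given as description.

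**Figure D1:**
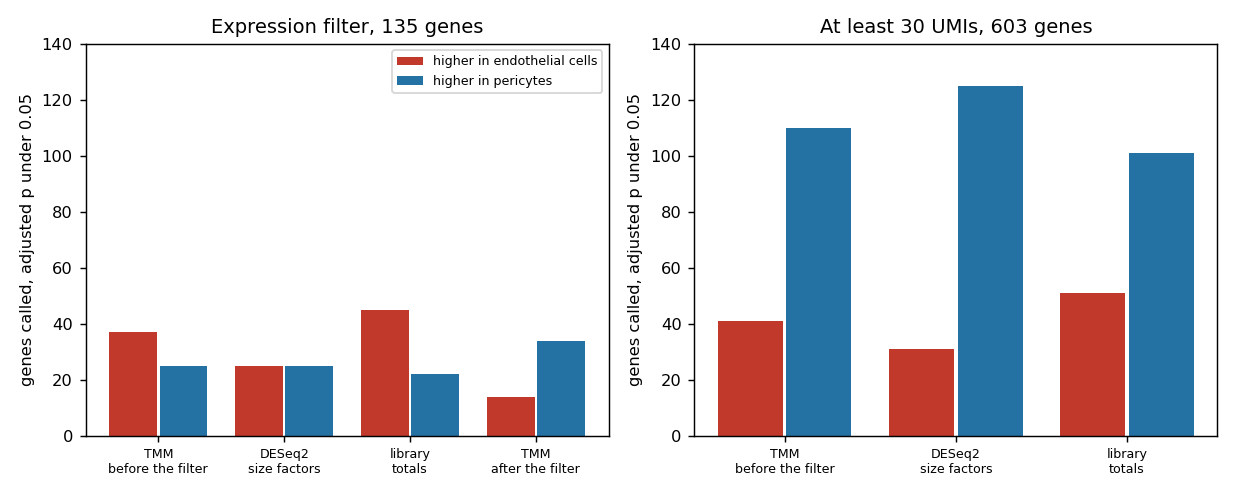
Genes called in each direction (bars, number of genes at an adjusted p under 0.05) under each scaling, for the 135 genes of the expression filter (left) and the 603 genes with at least 30 UMIs (right). On the left the split runs from 45 against 22 to 14 against 34, and on the right pericytes have more calls under each of the 3 scalings.

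**Figure D2:**
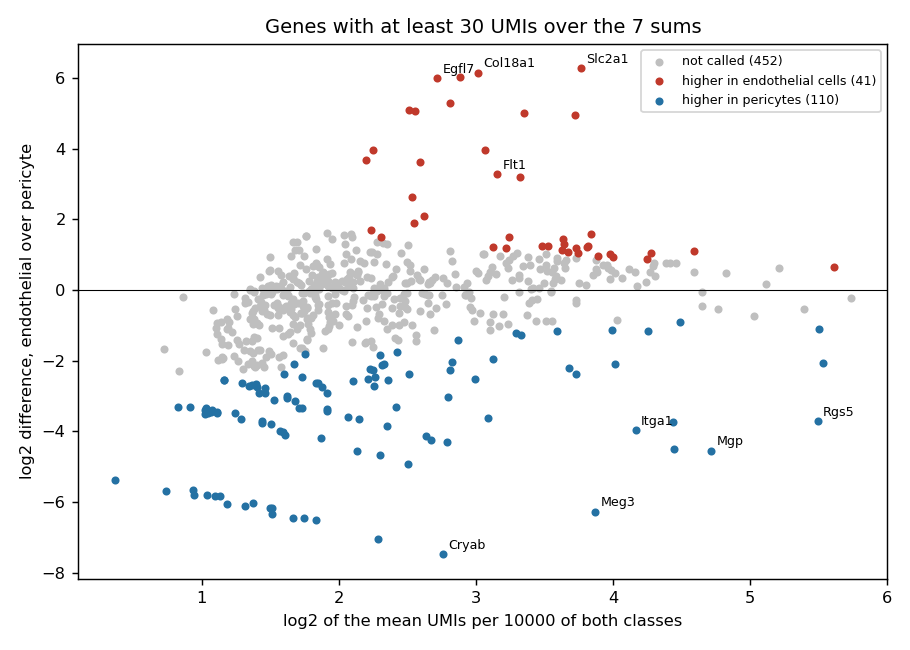
Log2 difference (endothelial over pericyte, vertical) against the log2 of the mean UMIs per 10000 of both classes (horizontal) for 603 genes, 1 point each. Red points are the 41 genes called higher in endothelial cells, blue points the 110 called higher in pericytes and grey points the genes not called.

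Promoters of 4 called genes are shown for motifs known from these lineages, from RefSeq (GRCm38.p6), 5′ to 3′ on the gene's strand, 250 bases before to 50 after the start. Capitals mark CAGGAAG on either strand, which holds the core bound by ETS factors, and the CArG box, bound by serum response factor. Only the strict form CCWWWWWWGG, with W for A or T, was counted here as a CArG box. *Egfl7* (chr2:26580833-26581132, + strand) is shown as an endothelial gene. *Myl9* (chr2:156775214-156775513, + strand), *Myl6* (chr10:128492960-128493259, - strand) and *Cnn2* (chr10:79988350-79988649, + strand) are the contractile genes called higher in pericytes that hold a CArG box. These promoters were picked because they hold a motif. *Acta2*, *Cald1* and *Mylk*, also called, have no match to the strict CArG form, nor has the second promoter of *Myl6*. Near matches were not counted, such as ccctatatgg and ccttgtttgg in *Acta2*. The third promoter of *Egfl7* has no CAGGAAG. Nor do the promoters of *Slc2a1*, *Flt1*, *Tsc22d1*, *Slc3a2* and *Eng*, also called higher in endothelial cells.
Egfl7: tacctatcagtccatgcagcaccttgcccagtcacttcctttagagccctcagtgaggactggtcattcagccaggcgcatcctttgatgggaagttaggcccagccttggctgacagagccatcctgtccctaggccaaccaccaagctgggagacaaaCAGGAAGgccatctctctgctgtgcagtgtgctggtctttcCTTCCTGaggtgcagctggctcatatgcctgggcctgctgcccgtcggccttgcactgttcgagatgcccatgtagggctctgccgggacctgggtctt
Myl9: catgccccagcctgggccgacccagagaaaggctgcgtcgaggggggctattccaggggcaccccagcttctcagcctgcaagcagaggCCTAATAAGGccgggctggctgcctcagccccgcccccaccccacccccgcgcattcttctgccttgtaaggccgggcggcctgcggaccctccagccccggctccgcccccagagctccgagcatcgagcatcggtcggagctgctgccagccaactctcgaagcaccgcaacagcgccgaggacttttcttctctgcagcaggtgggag
Myl6: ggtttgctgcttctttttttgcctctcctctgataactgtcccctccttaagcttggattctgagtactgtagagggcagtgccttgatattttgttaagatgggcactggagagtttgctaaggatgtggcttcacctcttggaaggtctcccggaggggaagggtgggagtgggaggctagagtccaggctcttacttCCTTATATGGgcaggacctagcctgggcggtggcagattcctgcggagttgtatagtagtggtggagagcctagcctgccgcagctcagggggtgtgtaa
Cnn2: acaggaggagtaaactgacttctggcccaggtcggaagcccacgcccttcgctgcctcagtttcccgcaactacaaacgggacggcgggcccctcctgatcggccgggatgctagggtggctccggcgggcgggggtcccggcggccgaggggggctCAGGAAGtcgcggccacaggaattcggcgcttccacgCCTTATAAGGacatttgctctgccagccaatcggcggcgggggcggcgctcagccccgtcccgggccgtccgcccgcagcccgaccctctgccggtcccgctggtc

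Motifs were counted for genes called under either filter, 51 higher in endothelial cells and 113 higher in pericytes. Of these, 37 and 83 were matched to a promoter. A CArG box of the strict form was found in a promoter of 7 of 83 matched genes called higher in pericytes (8.43%). It was found for 0 of 37 called higher in endothelial cells and for 1.81% of all 27025 genes. Of the contractile list, 3 of 22 matched genes hold one. CAGGAAG was found for 9 of 37 genes called higher in endothelial cells (24.3%), 15 of 83 called higher in pericytes (18.1%) and 14.8% of all genes. The 9 are *Egfl7*, *Col18a1*, *Sat1*, *Pfn1*, the ribosomal *Rpl34*, *Rps26* and *Rps3*, and the globins *Hba-a1* and *Hba-a2*. The calls of the globins rest on the endothelial sum of fl/fl 2, so nothing is read from this share. These are matches of letters and were not tested.

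Transporters of the blood-retina barrier were high in endothelial cells. *Slc2a1*, the glucose transporter GLUT1 (chr4:119108711-119137983), was at 35.5, 31.2, 17.7 and 23.4 in endothelial sums and at 0.207, 0.555 and 0 in pericyte sums. The groups did not overlap, and the log2 difference was 6.27 ± 0.61 (SE; adjusted p = 8.43e-17, edgeR). *Slc7a5*, which carries large neutral amino acids, was at 30.4, 12.1, 1.61 and 11.2 in endothelial sums and at 0.207, 0.555 and 0 in pericyte sums. Its lowest endothelial sum, fl/fl 1, was still above every pericyte sum (log2 difference 5.27 ± 0.97, adjusted p = 1.8e-06, edgeR). Of 17 listed barrier genes, 5 were among the 603 and 4 were called higher in endothelial cells, against 6.80% of all 603, the others being *Slc3a2*, the partner chain of *Slc7a5* (2.62), and the taurine transporter *Slc6a6* (2.10). *Slc6a6* overlapped between classes, at 0 in the endothelial sum of fl/fl 1, and lost its call with plate as replicate block (adjusted p = 0.586, edgeR). In the Gpr124 fl/fl plates only, 1 barrier gene was called.

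Genes of VEGF and adrenomedullin signalling followed. *Flt1*, the VEGF receptor VEGFR1, was at 28.7, 21.1, 3.21 and 12.3 in endothelial sums and at 1.45, 1.67 and 1.42 in pericyte sums, without overlap (log2 difference 3.28 ± 0.59). *Egfl7*, a secreted endothelial factor, was at 6.75, 16.1, 12.9 and 16.7 against 0.207, 0 and 0 (5.99 ± 1.01). Its annotated span also holds the gene of miR-126. *Ramp2*, the partner of the adrenomedullin receptor, was at 6.75, 17.1, 11.2 and 10.1 against 0.414, 0 and 0. Of 21 listed genes, 4 were among the 603 and these 3 were called, against 6.80% of all 603. *Egfl7* and *Ramp2* reached 30 UMIs almost only through the endothelial sums, so nothing is read from this count. The fourth, *Nrp1*, had a log2 difference of -0.19 (adjusted p = 0.916, edgeR). *Kdr*, the main VEGF receptor, had 25 UMIs in endothelial cells and 1 in pericytes and was too low to be tested.

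Endothelial junction and surface genes summed to 92.6 to 189 in endothelial sums and to 12.8 to 26.7 in pericyte sums. *Cdh5*, VE-cadherin, was at 28.7, 12.1, 9.64 and 7.81 against 0, 0.555 and 0 (log2 difference 6.01 ± 0.81). *Cd93*, a surface receptor, was at 40.5, 17.1, 17.7 and 12.3 against 4.76, 10.6 and 4.97, and pericytes held 49 UMIs of it. Of 22 listed genes, 5 were among the 603 and 4 were called higher in endothelial cells, against 6.80% of all 603. *Eng* (1.69) stayed called in 9 of 16 alternatives and *Esam* (1.49) in 4, and *Esam* had an adjusted p of 0.0951 with plate as replicate block (edgeR). In the Gpr124 fl/fl plates only, 0 of the list were called. *Pecam1*, which encodes the sorted CD31, had 17 UMIs in endothelial cells and 1 in pericytes.

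Other genes led by endothelial cells had varied roles. *Col18a1*, the collagen chain that holds endostatin, was at 28.7, 12.1, 9.64 and 13.4 against 0, 0 and 0.71 (log2 difference 6.15 ± 0.94). *Tsc22d1*, a transcriptional regulator, was at 23.6, 17.1, 11.2 and 21.2 against 2.28, 0.555 and 2.13 (3.18 ± 0.52). *Sat1*, which breaks down polyamines, was at 20.3, 13.1, 0 and 11.2 against 0.414, 1.67 and 0.71, so the classes overlapped through fl/fl 1. The water channel *Aqp1* was likewise at 0 in that sum and at 5.03 to 23.6 in the other endothelial sums. *Ctnnb1*, which encodes beta-catenin, was at 7.81 to 21.9 in endothelial sums and 2.78 to 5.58 in pericyte sums (1.47 ± 0.47), and had an adjusted p of 0.0556 with plate as replicate block (edgeR).

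Ribosomal protein genes summed to 976, 1198, 921 and 1604 in endothelial sums and to 701, 568 and 744 in pericyte sums. *Rps29* was at 20.3, 44.3, 24.1 and 45.8 against 14.7, 12.8 and 16.3 (log2 difference 1.14 ± 0.29). *Rpl15*, *Rps20* and *Rps26* had differences of 1.42, 1.06 and 1.22. In the expression filter 22 of 57 were called higher in endothelial cells, against 27.4% of all 135 genes, and 0 in pericytes. Of the 22, 5 were called under all 4 scalings. Among the 603 genes 17 of 74 were called, against 6.80% of all. That count was 9 without the endothelial sum of fl/fl 2, which also held the erythroid markers, 10 without that of dEC/dEC 2, 4 without the pericyte sum of dEC/dEC 2, 10 with plate as replicate block, 7 with DESeq2's Wald test and 1 in the Gpr124 fl/fl plates only. Reads of these genes can be shared with pseudogenes, so single members are uncertain.

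**Figure D3:**
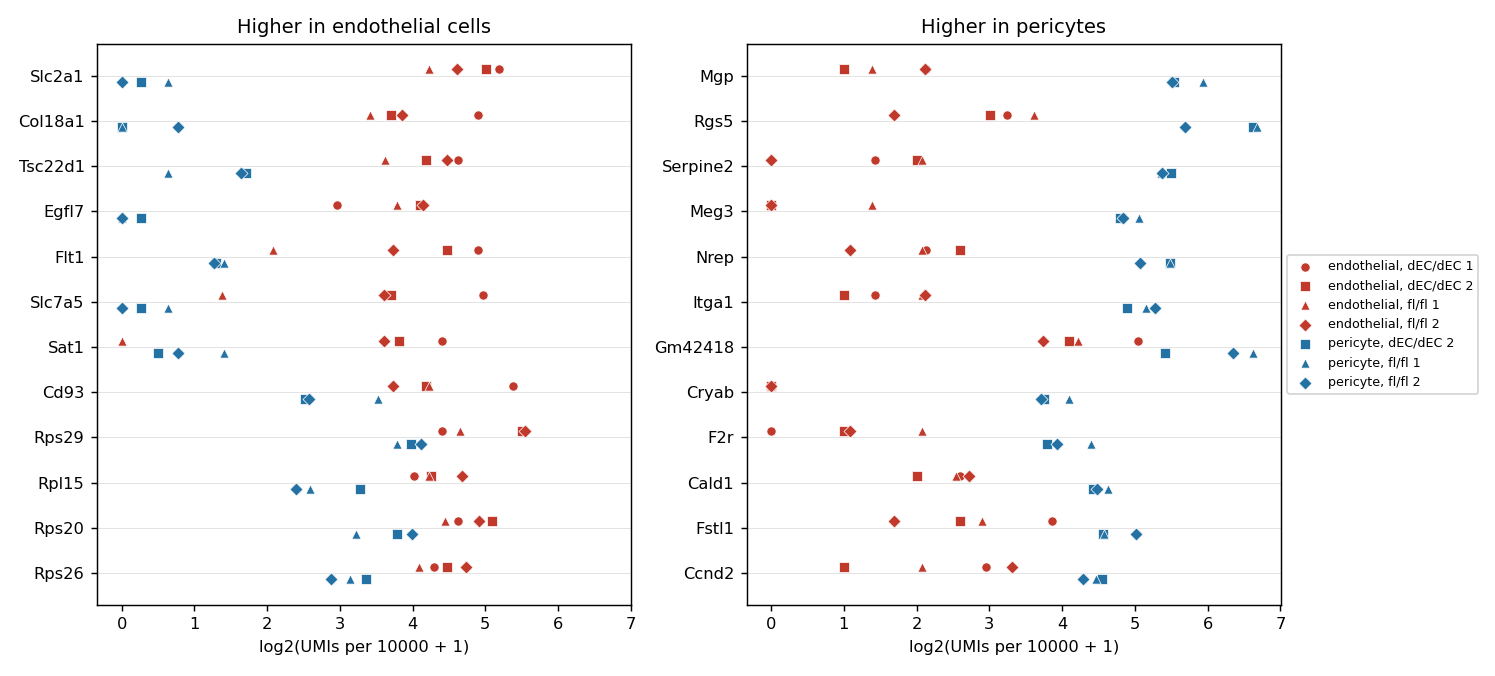
Level of the 12 genes with the smallest adjusted p in each direction, as log2(UMIs per 10000 + 1), in each of the 7 sums (1 point per sum, red endothelial, blue pericyte, shape by plate). Sat1 is the gene of the 24 whose classes overlap, with 0 in the endothelial sum of fl/fl 1.

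*Rgs5*, a regulator of G protein signalling and a standard mural marker (chr1:169655501-169695813), was at 97.2, 101 and 50.4 in pericyte sums and at 8.44, 7.04, 11.2 and 2.23 in endothelial sums (log2 difference -3.72 ± 0.34, adjusted p = 1.76e-18, edgeR). It was found in 21 of 21 pericytes and 6 of 11 endothelial wells. Of 22 listed genes, 16 were among the 603 and 16 were called higher in pericytes, against 18.2% of all 603. In endothelial cells 9 of the 22 had no UMI, so members that reached 30 UMIs through the pericyte sums had to differ, and nothing is read from this count. *Ndufa4l2*, at 11.4, 9.44 and 8.51, and *Higd1b*, at 7.24, 7.77 and 2.13, had no endothelial UMI, which makes them at least 10.8-fold and 6.69-fold higher in pericytes (against 3 UMIs over the endothelial sums). *Cspg4*, the NG2 proteoglycan, was at 15.9, 13.3 and 7.1 against 0, 1.01, 1.61 and 0. The channel genes *Kcnj8* and *Abcc9*, which form an ATP-sensitive potassium channel, were also called, and *Kcnj8* overlapped through 0.71 in fl/fl 2. *Mcam* overlapped too, with 16.1 in the endothelial sum of fl/fl 1, and stayed called in 12 of 26 alternatives. With plate as replicate block, the adjusted p among the 603 was 0.0897 for *Kcnj8* and 0.0905 for *Mcam* (edgeR), and 13 of the list were called. The Notch receptor *Notch3* was at 12.8, 20.5 and 5.68 against 0, 0, 3.21 and 0, and its target *Heyl* was called as well, the 2 called of 5 Notch genes tested, against 18.2% of all 603. *Notch3* too reached 30 UMIs through the pericyte sums, so nothing is read from this count.

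Interstitial matrix genes and protease inhibitors summed to 54.7 to 101 in endothelial sums and to 216 to 221 in pericyte sums. *Mgp*, matrix Gla protein, an inhibitor of calcification (chr6:136872435-136875823), was at 45.5, 60.5 and 44.7 in pericyte sums and at 3.38, 1.01, 1.61 and 3.35 in endothelial sums (log2 difference -4.55 ± 0.41). *Serpine2*, a serine protease inhibitor, was at 44.3, 40 and 40.4 against 1.69, 3.02, 3.21 and 0 (-4.50 ± 0.43). Of 28 listed genes, 11 were among the 603, 8 were called higher in pericytes, against 18.2% of all 603, and 0 in endothelial cells. *Igfbp7*, a secreted binding protein, was not called (-0.22), with 157 endothelial and 450 pericyte UMIs. The 8 called genes included the fibrillar collagens *Col1a2* and *Col3a1*, each with 1 endothelial UMI, and *Postn*, with none. *Fstl1*, a secreted glycoprotein, was at 22.5, 22.8 and 31.2 against 13.5, 5.03, 6.43 and 2.23.

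Basement membrane genes were divided between the classes. Of 16 listed, 9 were among the 603, with 2 called higher in endothelial cells (*Col18a1* and *Sparc*) and 4 in pericytes, against 6.80% and 18.2% of all 603. *Sparc* (0.65 ± 0.26) stayed called in 10 of 27 alternatives to the main fit. With plate as replicate block its adjusted p among the 603 was 0.103 (edgeR), and the list gave 1 and 5 calls. *Col4a1*, a chain of collagen IV, was at 65.2, 47.2 and 69.5 in pericyte sums and at 33.8, 49.3, 27.3 and 10.1 in endothelial sums, which overlapped (log2 difference -1.11 ± 0.28). The linker *Nid1*, *Lamb1* and *Agrn* were the others. The summed level of the list, 124 to 219 in endothelial and 180 to 211 in pericyte sums, overlapped.

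*Itga1*, the integrin chain that binds collagen, was at 28.8, 34.4 and 37.6 in pericyte sums and at 1.69, 1.01, 3.21 and 3.35 in endothelial sums (log2 difference -3.95 ± 0.44). Of 4 integrin genes among the 603, 3 were called higher in pericytes, against 18.2% of all 603. The others, *Itga7* and *Itgav*, had 1 and 2 endothelial UMIs and stayed called in 6 and 3 of 16 alternatives. With plate as replicate block their adjusted p was 0.0982 and 0.143 (edgeR), which leaves *Itga1* as the 1 integrin called.

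Contractile genes were divided into called and uncalled members. Of 16 among the 603, 6 were called higher in pericytes, against 18.2% of all 603, 0 in endothelial cells and 10 in neither. *Acta2*, smooth muscle actin, was at 11.2, 15 and 14.9 against 1.69, 4.02, 0 and 3.35 (log2 difference -2.48 ± 0.55). *Cald1*, caldesmon, was at 20.5, 23.9 and 21.3 against 5.07, 3.02, 4.82 and 5.58 (-2.37 ± 0.42). *Myl9*, *Cnn2* and *Myl6*, whose promoters are printed above, had differences of -3.83, -2.37 and -0.91, and *Mylk*, the kinase of myosin light chain, -2.05. *Myl6* had an adjusted p of 0.055 among the 603 with plate as replicate block (edgeR). *Tagln*, another smooth muscle gene, had 29 pericyte UMIs and none in endothelial cells and was below the limit of 30.

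**Figure D4:**
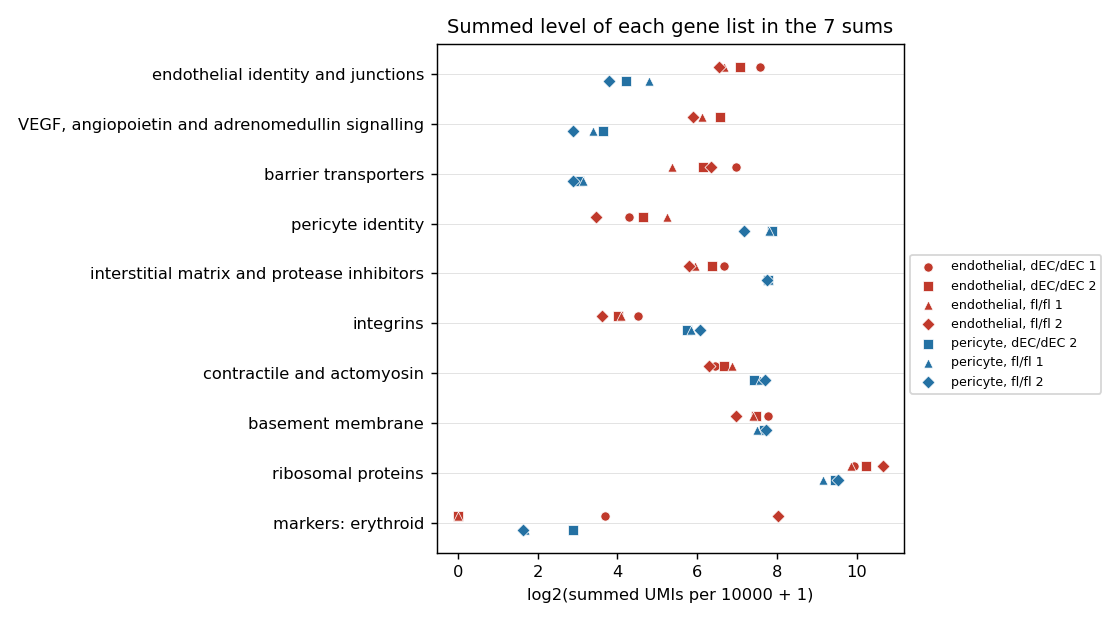
Summed level of 10 gene lists, as log2(summed UMIs per 10000 + 1), in each of the 7 sums (1 point per sum, red endothelial, blue pericyte, shape by plate). Pericyte identity, matrix and integrin genes lie higher in every pericyte sum, basement membrane genes overlap, and the erythroid markers stand at 260 per 10000 in the endothelial sum of fl/fl 2.

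Several pericyte genes fell outside these roles. *Meg3*, a maternally expressed imprinted long non-coding RNA, was at 26.7, 32.2 and 27.7 in pericyte sums and had 1 UMI in endothelial cells (log2 difference -6.28 ± 0.65). *Cryab*, the small heat shock protein alpha-B crystallin, was at 12.4, 16.1 and 12.1 and had no endothelial UMI, at least 13.6-fold higher in pericytes. It was found in 21 of 21 pericytes, while the 13 lens markers, other crystallins among them, were at 0. *Nrep* was at 43.9, 43.9 and 32.6 against 3.38, 5.03, 3.21 and 1.12 (-3.75 ± 0.39). *F2r*, the thrombin receptor PAR1, and *Ccnd2*, a D-type cyclin, had differences of -3.62 and -2.21. *Gm42418*, which overlaps ribosomal RNA sequence, was at 41.8, 97.2 and 80.2 against 32.1, 16.1, 17.7 and 12.3, and its source is uncertain. *Epas1*, which encodes HIF-2 alpha, is often listed as endothelial but was at 23.8, 23.3 and 29.1 in pericyte sums and at 25.3, 12.1, 11.2 and 2.23 in endothelial sums, which overlapped (-1.19 ± 0.34).

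*Adgra2*, the gene of GPR124, had 3 UMIs in endothelial cells, all in the Gpr124 fl/fl plates, and 24 in pericytes, and was too low to be tested. With so few UMIs, the deletion in endothelial cells could not be checked at this depth. Among 3 WNT genes tested, *Ctnnb1* was called higher in endothelial cells and the WNT target *Apcdd1* higher in pericytes (-1.41, adjusted p = 0.0401, edgeR). With plate as replicate block neither was called, at adjusted p = 0.079 for *Ctnnb1* and 0.109 for *Apcdd1* (edgeR), and *Apcdd1* stayed called in 4 of 16 alternatives.

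Wells outside the limits had not entered the fit. In wells of 500 to 1000 UMIs, 2 endothelial and 5 pericyte wells by the same markers, the direction was the same for 28 of the 37 genes called higher in endothelial cells, opposite for 5 and equal for 4. It was the same for 21 of the 25 called higher in pericytes and opposite for 4. The 8 pericyte wells above 8000 UMIs were below every endothelial sum for 32 of the 37 genes and above every endothelial sum for 20 of the 25. No endothelial well exceeded that limit, so the 8 pericyte wells were compared with the same endothelial sums that gave the calls. Only the pericyte side of that comparison is new. For neither set of wells is the share of all tested genes with the same pattern given, so these counts are description. The 25 pericyte genes summed to 250 per 10000 in the 1424 wells under 500 UMIs, compared with 122 to 247 in endothelial sums and 696 to 798 in pericyte sums. The 15 endothelial genes outside the ribosomal list, *Rpl9-ps6* among them, summed to 115 in these shallow wells. They summed to 275 to 431 in endothelial sums and 111 to 119 in pericyte sums. Genes of the other class thus lay in each class at a level also seen in near-empty wells, or below it. The source of these transcripts was not tested.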

How the data were processed

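The authors sorted single cells into 384-well plates, made SORT-seq libraries and aligned them with STARsolo 2.7.11b to GRCm38 (per the labels and methods). The deposited values are estimated counts, that is, UMIs corrected for collisions, and were rounded to whole numbers. Spike-ins were removed. Wells with 1000 to 8000 UMIs after scaling plates to the highest plate median and a mitochondrial share under 10% were kept. Doublets were not called. Classes and gene lists were chosen with earlier results of these data known.

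Sums were tested with edgeR 4.0.16 (quasi-likelihood test, filterByExpr, Benjamini-Hochberg adjustment) in R 4.3.3. DESeq2 1.42.0 and limma 3.58.1 gave alternatives. TMM factors were at first computed after the filter. On simulated data with known changes that order called many unchanged genes. The order was therefore changed after results had been seen: factors come from genes with at least 30 UMIs and whole library totals, before the filter. Under this order simulated unchanged genes still lay toward pericytes, and false calls exceeded the nominal rate when most changed genes were higher in endothelial cells, so some of the calls may be false. The first order is reported as an alternative. Named genes are the 12 with the smallest adjusted p in each direction, and listed genes. Genes were located in GENCODE vM21.

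Both sums of a plate share a suspension and plate, which pairs them. Deviations of same-plate sums correlated across genes at 0.097, -0.0099 and 0.065, within the range of -0.129 to 0.104 for sums of different plates. An exact permutation test of 4 against 3 sums cannot go below p = 0.0571. Each sum's depth is given in the report, and floors of 3 UMIs cover counting error only.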

Additional observations from a re-analysis of the deposited data

Results flagged for a closer look

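Among 68 genes tested, 18 had an endothelial sum that stood apart from the other 3, where chance flags about 5% of groups. The globin genes *Hba-a1*, *Hba-a2* and *Hbb-bs* stood at 62.5, 102 and 79.2 UMIs per 10000 in the endothelial sum of fl/fl 2 and at 0 to 1.69 in the other endothelial sums. They were called higher in endothelial cells among the 603 genes, and the call rests on that sum. *Hba-a1* and *Hba-a2* are near-identical copies and are uncertain singly.

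The other 15 were genes low in endothelial cells with 1 to 2 UMIs in a single sum. In dEC/dEC 2, *Abcc9*, *Col1a2*, *Itga7* and *Zic1* were at 1.01 and *Gucy1a1*, *Itgav*, *Pde5a* and *Timp2* at 2.01. In fl/fl 1, *Col3a1*, *Kcnj8* and *Meg3* were at 1.61 and *Lamb1* and *Notch3* at 3.21. *Cdkn1c* was at 1.69 in dEC/dEC 1 and *Egr1* at 1.12 in fl/fl 2. These genes are at 0 in the other 3 endothelial sums, so 1 UMI is enough to set a sum apart.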

How the results depend on the processing

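Of the 24 named genes, none changed direction under the alternatives run, and the 12 pericyte genes stayed called under each in which they were tested. *Sat1*, *Cd93*, *Rps29*, *Rps20* and *Rps26* lost their call under 2 or 3 alternatives, from among no filter, equally weighted wells, leaving out plate dEC/dEC 2 and the Gpr124 fl/fl plates only. The main fit gave 62 calls (37 endothelial, 25 pericyte) among 135 genes. With no filter there were 158 (79 and 79) among 10814 genes, and with at least 30 UMIs 151 (41 and 110) among 603. With no upper limit there were 41 (22 and 19) among 94 genes, and in the Gpr124 fl/fl plates only 35 (9 and 26) among 151. For the same 135 genes, DESeq2's Wald test gave 41 (19 and 22) and equally weighted wells 36 (18 and 18). Endothelial calls were 24 among 99 genes with unscaled totals. They were 14 among 135 with TMM factors computed after the filter. Counts from different numbers of genes are not directly comparable. Leaving out a sum or plate gave 28 to 73 calls (13 to 40 and 15 to 33), the fewest without dEC/dEC 2. Endothelial calls were 19 without the endothelial sum of that plate and 23 without its pericyte sum. Among the 603 genes, with alternatives added after seeing the data, leaving out gave 75 to 167 (21 to 53 and 54 to 114), the Gpr124 fl/fl plates 39 (8 and 31) and DESeq2's Wald test 22 endothelial calls. With plate as replicate block, calls were 29 and 26 for the 135 genes and 29 and 95 for the 603. The number of pericytes was 12 rather than 21 at a mitochondrial share under 5%.

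The globins reversed without the endothelial sum of fl/fl 2, to -3.01 for *Hbb-bs*, -0.90 for *Hba-a1* and -0.57 for *Hba-a2*, and without plate fl/fl 2, to -2.36, -1.20 and -0.55. Over all sums or plates left out in turn, their log2 differences reached at most 5.68, 5.47 and 6.09. The cause of these shifts was not tested, apart from the smaller number of genes or samples where the alternative itself sets it. Depth limits the comparison: 3 UMIs are 0.966 per 10000 over the endothelial sums, so most endothelial transcription factors and receptors could not be tested.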
